A study of Mus musculus with 67 samples.

Results

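The change that lipopolysaccharide (LPS) brought about in anti-HA pull-downs from mouse brain was measured gene by gene against the change in control pull-downs with IgG1. This took 14 of the 67 RNA sequencing libraries of the series, picked by their labels alone: pull-down from 3 PBS mice and 4 LPS mice, and IgG1 from 3 PBS mice and 4 LPS mice. All mice were C57BL/6J of genotype CX3CR1CreER/WT RLP22HA/HA, and all had received tamoxifen by gavage, 4 doses of 5 mg given every other day when 4 to 6 weeks old. LPS was injected into the peritoneum at 2.5 mg/kg and mice were killed 3 h later, while control mice were injected with PBS. Tissue was flash-frozen, homogenised, cleared of debris and incubated for 4 h with anti-HA (125 µg as stated) or with mouse IgG1 (1 µg as stated), so the control antibody was not matched in amount. Every group carried CreER on 1 copy of Cx3cr1, the driver covers all brain cells that express Cx3cr1 and not microglia alone, and the age at injection was not given in the sources used here. The design text states that repeats were individual mice.

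In RiboTag mice, Cre recombinase exchanges an exon of the ribosomal protein gene Rpl22 for a version with an HA tag, so that anti-HA recovers the ribosomes, and the bound RNA, of the cells in which Cre was active. IgG1 recovers what sticks without the tag, from any cell of the homogenate. LPS from the outer membrane of bacteria is sensed by CD14 and the receptor TLR4, which signals through MyD88 and TIRAP to NF-kB and MAP kinases within minutes to hours, and through TRIF to interferon. NF-kB induces its own inhibitors, cytokines and chemokines, while interferon acts on a separate set of antiviral genes in nearly every cell type. Activated microglia are known to lower genes of their resting state such as P2ry12.

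For each gene the interaction was computed, that is, the log2 change with LPS in pull-down minus the log2 change with LPS in IgG1. A positive value is a response that was larger, or less negative, in pull-down. Values after ± are standard errors (SE) of a log2 difference from edgeR, the adjusted p is edgeR's quasi-likelihood p after Benjamini-Hochberg adjustment over the 11444 genes, and "called" means an adjusted p under 0.05. Levels are CPM, counts scaled to a common library size, and are listed by library in replicate order.

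Pull-down libraries held 1131402 to 3513317 counts and IgG1 libraries 610257 to 1183677. The 26 microglia markers summed to 64880 to 77380 CPM in pull-down and to 1647 to 3328 CPM in IgG1, with none at 0, and the 23 neuron markers summed to 5452 to 6893 CPM in pull-down and to 13010 to 19580 CPM in IgG1. The microglia markers were thus far above their IgG1 level in pull-down, which does not single out microglia. The 11 border macrophage markers summed to 823 to 1298 CPM in pull-down and 17 to 41 CPM in IgG1. The 18 neutrophil and monocyte markers summed to 172 to 270 CPM and 17 to 75 CPM. The PBS libraries numbered 3 stood apart in Fkbp5, a cochaperone of the glucocorticoid receptor. It was at 68.7, 74.2 and 345 CPM in PBS pull-down and at 34.4, 29.4 and 77.7 CPM in PBS IgG1.

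Of 11444 genes, 982 (8.58%) had a called interaction, 641 higher (5.6%) and 341 lower (2.98%). The LPS change itself was called for 3037 genes in pull-down (26.5%) and for 132 in IgG1 (1.15%), 115 of them higher (1%) and 17 lower (0.149%). The 17 became 4 without LPS IgG1 replicate 2 and 47 without LPS IgG1 replicate 1. The median interaction of all genes was 0.0063. By DESeq2 size factors the median shifted to -0.13 and by total counts to -0.12, and the higher share of the calls fell from 65.3% to 45.7% and 47.5%, with 483 higher and 575 lower, and 485 higher and 535 lower. In pull-down alone, the higher share moved likewise from 58.6% to 45% and 40.6%. The split into higher and lower therefore depended on the scaling, and the individual genes described below had interactions well outside that shift unless their values say otherwise. Without both PBS libraries numbered 3, 691 genes were called, 427 higher and 264 lower. Among the genes described below and not given there in this setting, it ended the calls of Asap3 (adjusted p = 0.0979), C5ar1 (adjusted p = 0.177), Ccl22 (adjusted p = 0.408), H2-Ab1 (adjusted p = 0.146), Icam1 (adjusted p = 0.237), Lcn2 (adjusted p = 0.117), Myd88 (adjusted p = 0.277), Relb (adjusted p = 0.0728), Rps6 (adjusted p = 0.152), Tnip2 (adjusted p = 0.272), Slc2a9 (adjusted p = 0.0881), and Trem1 (adjusted p = 0.0928).

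The largest class held 582 genes that rose in pull-down, were not called in IgG1 and had a higher interaction, and 310 genes did the same downwards. These classes share libraries with the interaction, so their counts describe the calls and test nothing further. A second class held 100 genes that rose in both preparations. For 28 of these the interaction was called higher, and for 72 it was not called, with a median change of 2.05 in pull-down and 2.14 in IgG1 and a median interaction of 0.11. A call that was missed does not show that the changes were equal: the 95% interval of the interaction lay within ±1 for only 16 of the 72. The 28 genes became 15 without PBS IgG1 replicate 3 and 16 without both PBS libraries numbered 3.

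**Figure D1:**
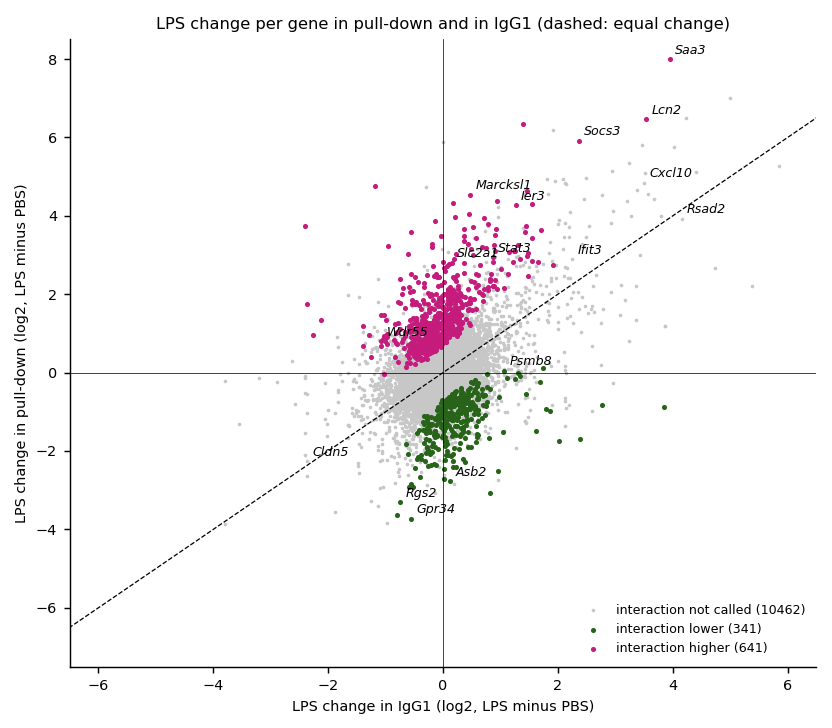
LPS change in pull-down (vertical axis, log2) against LPS change in IgG1 (horizontal axis, log2) for the 11444 genes tested, coloured where the interaction was called higher (641 genes) or lower (341 genes). The dashed line marks equal change, and genes that rose in both preparations lie along it towards the upper right.

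Promoters are shown for 7 genes that rose in both preparations, to set genes with a called interaction beside interferon genes with none called. Socs3, Ier3 and Nfkbia had a higher interaction, while Rsad2, Ifit3, Isg15 and Cxcl10 had no called interaction. The sequences are RefSeq's for GRCm38.p6, 250 bases before to 50 after the start of the gene, 5′ to 3′ on the gene's strand, whereas the counts were made on mm9. They lie at chr11:117969317-117969616 (Socs3, minus strand), chr17:35821463-35821762 (Ier3, plus), chr12:55492598-55492897 (Nfkbia, minus), chr12:26456403-26456702 (Rsad2, minus), chr19:34583279-34583578 (Ifit3, plus), chr4:156200769-156201068 (Isg15, minus) and chr5:92348840-92349139 (Cxcl10, minus). Capitals mark a match, on either strand, to the STAT core TTCNNNGAA in Socs3, to the NF-kB consensus (kB) in Ier3 and Nfkbia, to the core of the interferon-stimulated response element (ISRE, here 2 copies of GAAA with 2 bases of any kind between them) in Rsad2, Ifit3 and Isg15, and to ISRE and kB in Cxcl10.
Socs3: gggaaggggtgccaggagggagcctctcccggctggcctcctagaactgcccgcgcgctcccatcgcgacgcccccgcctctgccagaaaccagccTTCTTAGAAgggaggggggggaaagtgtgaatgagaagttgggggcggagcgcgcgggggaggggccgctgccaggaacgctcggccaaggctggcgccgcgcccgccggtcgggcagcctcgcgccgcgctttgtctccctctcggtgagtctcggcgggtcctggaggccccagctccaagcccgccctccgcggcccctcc
Ier3: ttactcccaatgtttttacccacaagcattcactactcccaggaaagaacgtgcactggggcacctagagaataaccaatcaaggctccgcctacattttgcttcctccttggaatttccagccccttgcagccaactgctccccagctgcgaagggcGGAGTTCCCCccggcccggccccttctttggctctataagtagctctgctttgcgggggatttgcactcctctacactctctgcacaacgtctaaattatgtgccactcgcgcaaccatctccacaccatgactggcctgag
Nfkbia: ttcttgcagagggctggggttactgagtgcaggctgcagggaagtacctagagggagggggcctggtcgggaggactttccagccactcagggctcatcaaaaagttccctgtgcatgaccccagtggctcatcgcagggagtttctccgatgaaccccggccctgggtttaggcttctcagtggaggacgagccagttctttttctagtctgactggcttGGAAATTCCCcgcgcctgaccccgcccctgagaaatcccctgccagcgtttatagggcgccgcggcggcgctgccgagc
Rsad2: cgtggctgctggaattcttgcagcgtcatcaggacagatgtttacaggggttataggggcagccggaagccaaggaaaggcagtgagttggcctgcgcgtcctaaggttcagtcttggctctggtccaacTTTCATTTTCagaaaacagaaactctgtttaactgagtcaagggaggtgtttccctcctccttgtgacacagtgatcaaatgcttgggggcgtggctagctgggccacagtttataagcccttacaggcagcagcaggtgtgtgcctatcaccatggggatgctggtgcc
Ifit3: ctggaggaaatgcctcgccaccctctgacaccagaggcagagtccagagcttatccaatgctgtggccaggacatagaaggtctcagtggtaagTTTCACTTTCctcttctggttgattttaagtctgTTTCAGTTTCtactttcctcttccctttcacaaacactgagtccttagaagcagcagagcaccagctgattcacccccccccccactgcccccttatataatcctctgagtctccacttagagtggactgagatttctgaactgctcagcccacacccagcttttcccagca
Isg15: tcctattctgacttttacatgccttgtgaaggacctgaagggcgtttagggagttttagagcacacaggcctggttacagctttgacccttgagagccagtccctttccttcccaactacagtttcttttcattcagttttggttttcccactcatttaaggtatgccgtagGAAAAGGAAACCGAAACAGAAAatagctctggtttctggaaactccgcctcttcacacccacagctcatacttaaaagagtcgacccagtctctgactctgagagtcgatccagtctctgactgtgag
Cxcl10: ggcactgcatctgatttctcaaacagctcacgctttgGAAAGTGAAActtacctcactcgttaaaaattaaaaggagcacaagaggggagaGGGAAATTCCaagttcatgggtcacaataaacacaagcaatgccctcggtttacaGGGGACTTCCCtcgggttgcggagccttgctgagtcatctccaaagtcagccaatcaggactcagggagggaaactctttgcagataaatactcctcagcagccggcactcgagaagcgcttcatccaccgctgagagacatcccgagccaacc

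In these letters the STAT match of Socs3 lay 154 to 146 bases before the start. The kB match lay 92 to 83 bases before the start in Ier3 and 29 to 20 bases before it in Nfkbia. The ISRE match of Rsad2 lay 120 to 111 bases before the start, Ifit3 held 2 (156 to 147 and 122 to 113 bases before it), and in Isg15 there were 3 overlapping ones between 78 and 57 bases before it. Cxcl10 held an ISRE match 213 to 204 bases before the start and 3 kB matches, of which the last 2 overlap by all but 1 base. Promoters could be matched by symbol for 8759 of the 11444 genes tested, and 3.77% of these held the ISRE core and 12.7% the kB consensus. Among the genes that rose in both preparations with no called interaction, 58 of 72 matched, and 31.0% held the ISRE core and 29.3% the kB consensus. Among the 641 with a higher interaction, 521 matched, and the shares were 3.26% and 12.3%. Among the 341 with a lower interaction, 256 matched, with 4.69% and 9.38%. The STAT core was held by 8.11% of all matched genes, 10.6% of the higher and 10.5% of the lower. Among the genes that rose in both preparations with no called interaction it was 24.1%. For the AP-1 motif TGANTCA the shares were 6.02%, 5.76%, 5.86% and 19.0%, in the same order. Such a match is a description of letters and not a bound site.

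Some receptor, adaptor and kinase genes of the LPS pathway had a larger change in pull-down than in IgG1. Of 17 tested genes of TLR4 signalling, 4 had a higher and 1 a lower interaction, with a median of 0.26. For this list and those below, the shares over all genes tested were 5.6% higher and 2.98% lower for the interaction. They were 15.5% and 11% for the LPS change in pull-down, and 1% and 0.149% in IgG1. Cd14, the coreceptor that hands LPS to TLR4, was at 129, 142 and 151 CPM in PBS pull-down and 1004, 1190, 1109 and 924 CPM in LPS pull-down. In IgG1 it was at 14.2, 14.7 and 22.5 CPM with PBS and 48.9, 60.1, 39.5 and 25.9 CPM with LPS. All LPS libraries lay above all PBS libraries in both preparations, with a larger step in pull-down, and the interaction was 1.57 ± 0.33 (adjusted p = 0.000916). Map3k8, the kinase that links TLR4 to ERK, went from 3.65, 4.6 and 5.35 to 57, 52.2, 36.7 and 55.1 CPM in pull-down and from 7.43, 4.2 and 3.88 to 9.93, 8.82, 8.18 and 5.17 CPM in IgG1. It had the highest called interaction of the list, 2.87 ± 0.56 (adjusted p = 0.000218). Tirap, the adaptor that brings MyD88 to the receptor, had an interaction of 1.77 ± 0.44 (adjusted p = 0.00393), which was 1.39 (adjusted p = 0.106) without PBS IgG1 replicate 1, where 2 genes of the list were called higher. Myd88 itself had 1.09 ± 0.33 (adjusted p = 0.0323) and Irak2, a kinase downstream of it, -1.13 ± 0.38 (adjusted p = 0.0447). These calls were lost on leaving out any of 7 and of 9 of the 14 libraries, with adjusted p up to 0.199 and 0.146. Tlr4 was low in every group, at 5.91 to 14.1 CPM in pull-down, and its interaction was -0.25 ± 0.65 (adjusted p = 0.882).

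Some NF-kB subunits and inhibitors rose more in pull-down than in IgG1. Of 15 tested, 14 rose in pull-down and 3 in IgG1, 6 had a higher interaction, and the median was 1.39. Nfkbia, the inhibitor IkB-alpha, was at 218, 189.9 and 234 CPM in PBS pull-down and 956, 1415, 1288 and 1089 CPM in LPS pull-down. In IgG1 it stood at 72.9, 103 and 80.8 CPM with PBS and 208, 277, 262 and 201 CPM with LPS. It rose in both, by 2.47 and 1.48 on the log2 scale, and its interaction was 0.99 ± 0.26 (adjusted p = 0.00723). The related inhibitor Nfkbib went from 68.7, 71.6 and 57.3 to 260.3, 394, 310.2 and 225 CPM in pull-down, and from 56.7, 53.6 and 44.3 to 71.6, 89, 77.7 and 69.5 CPM in IgG1. The groups did not overlap in either preparation, yet only the change in pull-down was called, and the interaction was 1.60 ± 0.26 (adjusted p = 8.44e-06). Rela, the p65 subunit, had 1.08 ± 0.27 (adjusted p = 0.00438), and Tnip1, which dampens NF-kB with A20, 1.34 ± 0.30 (adjusted p = 0.00154). Relb and Tnip2 were called with all libraries, but 9 and 8 of the 14 single omissions ended their calls. Without both PBS libraries numbered 3, 3 genes of the list were called, and Rela stood at 0.92 (adjusted p = 0.0565).

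Several feedback genes of cytokine signalling had a higher interaction. Socs3, which blocks signalling from the IL-6 receptor, was at 16.1, 19.7 and 22.9 CPM in PBS pull-down and at 1142, 1456, 1119 and 1035 CPM in LPS pull-down. In IgG1 it went from 11.5, 11.6 and 10.1 to 52.5, 68.2, 66.8 and 43.6 CPM. No LPS library overlapped a PBS library in either preparation. The rise was 5.92 in pull-down and 2.36 in IgG1, and the interaction was 3.56 ± 0.36 (adjusted p = 2.25e-10). Stat3, the transcription factor that Socs3 restrains, went from 134, 133 and 167 to 972, 1185, 1160 and 1124 CPM in pull-down and from 50, 42 and 35 to 91.5, 79.4, 64.1 and 72.5 CPM in IgG1. Its interaction was 2.07 ± 0.24 (adjusted p = 3.61e-09). Socs2 had 2.47 ± 0.38 (adjusted p = 2.29e-06) and the interleukin-4 receptor chain Il4ra 1.50 ± 0.28 (adjusted p = 0.000127). Of the 18 tested genes of cytokine receptors and SOCS feedback, 6 were called higher and 1 lower. Their median of 0.10 turned to -0.05 with DESeq2 size factors and -0.04 with total counts. The lower one was Il6st, the gp130 chain that IL-6 signals through, at -1.09 ± 0.27 (adjusted p = 0.00392).

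Some immediate early genes and some genes that end MAP kinase signalling also had a higher interaction. Of 22 immediate early genes, 7 had a higher interaction (median 0.59), and of 10 MAP kinase phosphatase and mRNA decay genes 6 did (median 1.45). The immediate early genes did not move as 1 set: 10 rose and 4 fell in pull-down, and 2 rose in IgG1. At an unadjusted p under 0.05 in edgeR, 2 were higher and 6 lower in IgG1. In the other list, 9 rose in pull-down and 0 in IgG1. Ier2, an early response gene, was at 35.1, 28.9 and 31.3 CPM in PBS pull-down and at 327, 407, 246 and 249.6 CPM in LPS pull-down. IgG1 held Ier2 at 50, 67.3 and 50.5 CPM with PBS and at 44.7, 53.7, 57.3 and 40.7 CPM with LPS. The IgG1 groups overlapped and the pull-down groups were far apart, and Ier2 had the smallest p of all 11444 interactions, 3.47 ± 0.29 (adjusted p = 5.91e-14). Ier3, an early response gene that NF-kB induces, went from 16.8, 18.4 and 21.4 to 356, 431, 322 and 359 CPM in pull-down. In IgG1 it went from 20.2, 32.6 and 28 to 62.4, 70.6, 73.7 and 50.3 CPM, a called rise of 1.26, and the interaction was 3.01 ± 0.31 (adjusted p = 4.76e-11). Junb, a subunit of AP-1, had 1.83 ± 0.24 (adjusted p = 5.27e-08).

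Dusp1, the phosphatase that switches off p38 and JNK, was at 13.2, 15.1 and 12.2 CPM in PBS pull-down and at 82.4, 116, 81.5 and 95.1 CPM in LPS pull-down. In IgG1, it stood at 39.8, 43.1 and 34.2 CPM with PBS and at 43.2, 34.5, 47.7 and 43.6 CPM with LPS, with overlapping groups. With PBS the level was lower in pull-down than in IgG1, and with LPS it was higher. The interaction was 2.66 ± 0.34 (adjusted p = 1.99e-08). Dusp16 had 2.28 ± 0.33 (adjusted p = 6.48e-07), and Zfp36, which destabilises cytokine mRNA, 1.67 ± 0.33 (adjusted p = 0.000263). Kdm6b, a histone demethylase induced by LPS in macrophages, rose from 35.1, 40.7 and 61.9 to 466, 668, 487 and 418 CPM in pull-down, and IgG1 held 52.7, 62 and 66.8 CPM with PBS and 74.5, 57.7, 96.8 and 85 CPM with LPS. Its interaction was 3.11 ± 0.31 (adjusted p = 4.76e-11). Cebpb, a transcription factor of inflammatory macrophages, rose in both preparations, by 3.44 and 1.55, with an interaction of 1.90 ± 0.28 (adjusted p = 1.47e-06).

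**Figure D2:**
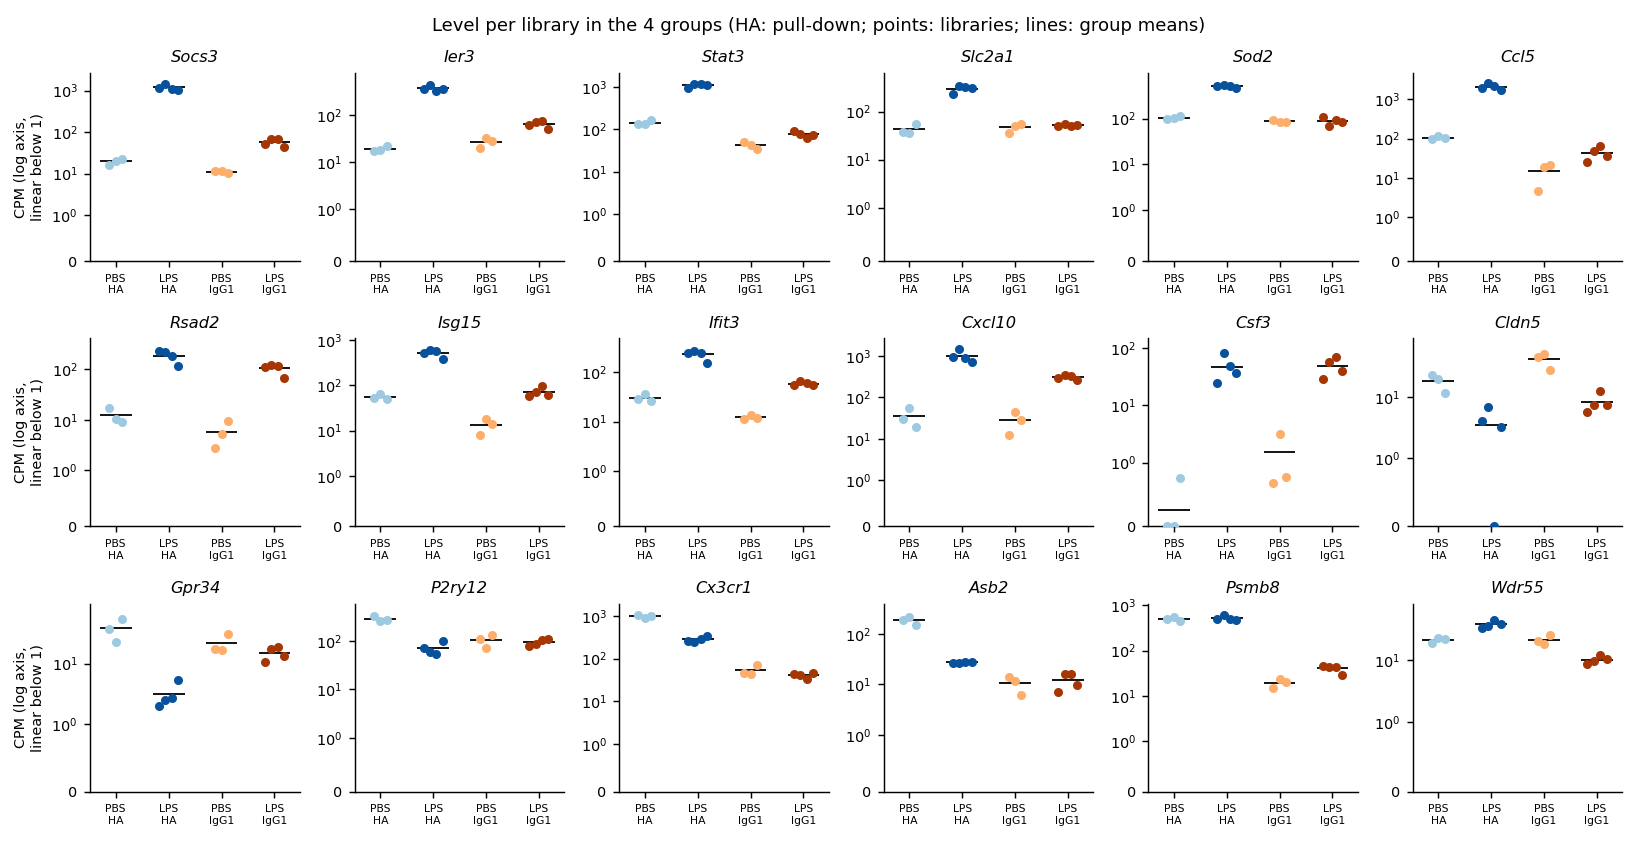
Level of 18 genes in each of the 14 libraries (vertical axis, CPM on a log scale that is linear below 1), with points for libraries and lines for group means. The first 6 genes rose far more in pull-down (HA) than in IgG1, Rsad2, Isg15, Ifit3, Cxcl10 and Csf3 rose in both, Cldn5 fell in both, and Gpr34, P2ry12, Cx3cr1 and Asb2 fell in pull-down.

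Sphk1, Marcksl1 and Pim1 were among the genes with the largest called interactions. Marcksl1, which encodes an actin-binding protein, was at 34.3, 35.5 and 21.4 CPM in PBS pull-down and at 636, 970, 667 and 581 CPM in LPS pull-down. IgG1 held 25.7, 45.2 and 13.2 CPM with PBS and 44.7, 36.1, 40.9 and 28.8 CPM with LPS, so that only the pull-down groups were apart. The interaction was 4.07 ± 0.42 (adjusted p = 3.49e-08). Sphk1, which makes the lipid signal sphingosine-1-phosphate, had 4.16 ± 0.68 (adjusted p = 2.75e-06), and Pim1, a kinase induced by STAT signalling, 3.75 ± 0.62 (adjusted p = 2.04e-06). Spp1, the gene of osteopontin, went from 13.2, 8.54 and 12.2 to 75.1, 136, 126 and 180.4 CPM in pull-down with an interaction of 3.52 ± 0.59 (adjusted p = 0.000118), and the complement receptor gene C5ar1 had 3.30 ± 0.80 (adjusted p = 0.00996), which was 2.95 (adjusted p = 0.123) without PBS IgG1 replicate 3. Other genes with large fitted interactions had a group with few reads. Trem1, a receptor that amplifies TLR signals, had 140, 170, 78 and 68 reads in LPS pull-down, 1, 0 and 2 reads in PBS pull-down, 2, 0 and 1 in PBS IgG1 and 2, 3, 1 and 5 in LPS IgG1. Cd244, an immune cell receptor, had 76, 49, 37 and 37 reads in LPS pull-down, 0, 1 and 3 in PBS pull-down, 3, 0 and 3 in PBS IgG1 and 0, 2, 0 and 1 in LPS IgG1. For such genes the reads are given in place of a fold.

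Cytokine genes rose in pull-down, but their interaction was not called. Of 13 tested, 10 rose in pull-down and 1 in IgG1, and edgeR called no interaction, with 5 at an unadjusted p under 0.05, while DESeq2 called 3 and limma voom 2. The median interaction was 1.79, and 7 of the 13 had a group with 3 reads or fewer. Il1b, the gene of interleukin-1 beta, was at 5.11, 3.29 and 4.58 CPM in PBS pull-down and at 79.1, 133, 145 and 178 CPM in LPS pull-down. In IgG1 it stood at 2.02, 1.05 and 3.88 CPM with PBS and 9.93, 14.4, 6.82 and 6.65 CPM with LPS. The change was called in pull-down (4.89) and not in IgG1 (1.95), and the interaction was 2.94 ± 0.91 (adjusted p = 0.0678). It passed the threshold without LPS IgG1 replicate 2, at 3.21 (adjusted p = 0.0413), and without LPS pull-down replicate 1, at 3.15 (adjusted p = 0.0121). Tnf went from 0.73, 1.97 and 2.29 to 24.7, 51.5, 57 and 59.4 CPM in pull-down, and its interaction was 3.26 ± 1.43 (adjusted p = 0.226). Csf3, the growth factor of neutrophils, behaved otherwise: it had 0, 0 and 1 reads in PBS pull-down and 24.1, 81.3, 47.5 and 36.7 CPM in LPS pull-down, beside 1, 3 and 1 reads in PBS IgG1 and 29.1, 56.9, 68.2 and 39.2 CPM in LPS IgG1. The LPS libraries of the 2 preparations covered the same range of levels.

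Among chemokines, 16 of 18 tested rose in pull-down and 6 in IgG1. The interaction was called higher for 3, against 5.6% of all genes tested, with a median of 1.08. Without both PBS libraries numbered 3 none passed. Ccl5, which attracts T cells and monocytes, was at 96.4, 119 and 102 CPM in PBS pull-down and at 1900, 2519, 2202 and 1685 CPM in LPS pull-down. In IgG1 it was at 4.73, 18.9 and 21 CPM with PBS and at 24.8, 48.1, 65.5 and 36.2 CPM with LPS. The interaction was 2.74 ± 0.53 (adjusted p = 0.00192), and 2.27 (adjusted p = 0.0785) without both PBS libraries numbered 3. Ccl4 had 2.17 ± 0.48 (adjusted p = 0.00353), and 1.98 (adjusted p = 0.0536) in that setting. Ccl22 was called with all libraries, but 11 of the 14 single omissions ended the call. The count of 6 in IgG1 became 3 without PBS IgG1 replicate 1 and 10 without LPS IgG1 replicate 4.

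Cxcl10 and Ccl2 rose in both preparations. Cxcl10, an interferon-induced chemokine, went from 29.2, 55.8 and 19.1 to 958, 1458, 899.5 and 725 CPM in pull-down and from 12.2, 43.1 and 28.7 to 284, 353, 318 and 257 CPM in IgG1. The rises were 4.84 and 3.50, and the interaction was 1.34 ± 0.58 (adjusted p = 0.186). Ccl2, which recruits monocytes, went from 2.92, 7.23 and 2.29 to 57.3, 49.1, 65.2 and 63.8 CPM in pull-down and from 3.38, 1.05 and 4.66 to 16.3, 23.2, 23.2 and 16.3 CPM in IgG1, with an interaction of 1.19 ± 0.65 (adjusted p = 0.314). Cxcl1 and Cxcl2, which attract neutrophils, had 8.24, 22.4, 19 and 11.9 and 11.2, 35.4, 27.1 and 21.6 CPM in LPS pull-down, and 14.9, 27.3, 32.7 and 22.2 and 2.13, 13.6, 12.3 and 2.96 CPM in LPS IgG1. Both had 3 reads or fewer in PBS pull-down.

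The acute phase genes Saa3 and Lcn2 rose in both preparations, with the larger rise in pull-down. Saa3, a serum amyloid gene of macrophages, went from 9.49, 5.26 and 13 to 2180, 2809, 2406 and 2002 CPM in pull-down and from 6.08, 5.25 and 4.66 to 61.7, 80.2, 136 and 70.2 CPM in IgG1. Its interaction was 4.05 ± 1.01 (adjusted p = 0.0316), and 4.43 (adjusted p = 0.0907) without both PBS libraries numbered 3, with 4 single omissions also ending the call. Lcn2, which binds bacterial siderophores, was at 1.46, 0.657 and 3.06 CPM in PBS pull-down and at 130.1, 191, 196 and 111 CPM in LPS pull-down. In IgG1 it was at 2.7, 7.36 and 13.2 CPM with PBS and at 85.8, 115, 94.1 and 64.3 CPM with LPS, so that the background after LPS stood at 57.1% of the pull-down level. Its interaction was 2.92 ± 0.89 (adjusted p = 0.0131), and 2.21 (adjusted p = 0.142) without PBS IgG1 replicate 3 and 2.49 (adjusted p = 0.0682) without PBS pull-down replicate 2.

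Some genes of activated macrophage metabolism and of stress responses had a higher interaction. Of 15 genes of activated macrophage metabolism, 5 had a higher interaction (median 0.75). Slc2a1, the glucose transporter GLUT1, was at 37.2, 36.1 and 55.8 CPM in PBS pull-down and at 230, 348, 319 and 308 CPM in LPS pull-down. IgG1 libraries held 36.5, 50.4 and 54.4 CPM with PBS and 49.6, 54.5, 50.5 and 52.5 CPM with LPS. These groups overlapped, and the interaction was 2.66 ± 0.27 (adjusted p = 4.76e-11). Sod2, the mitochondrial superoxide dismutase, went from 96.4, 102 and 112 to 505, 544, 517 and 476 CPM in pull-down, whereas IgG1 held 91.8, 83 and 86.2 CPM with PBS and 109, 68.2, 91.4 and 84.3 CPM with LPS. The interaction was 2.28 ± 0.24 (adjusted p = 2.25e-10). Pfkfb3, which speeds glycolysis, had 1.92 ± 0.31 (adjusted p = 1.05e-05). Of 16 glucocorticoid and stress genes, 4 had a higher interaction (median 0.49). Cdkn1a, the cell cycle inhibitor p21, had 1.96 ± 0.26 (adjusted p = 1.02e-07), and the metal-binding genes Mt1 and Mt2 had 1.59 ± 0.25 and 1.93 ± 0.32, all rising in IgG1 too. Fkbp5 had an interaction of 1.06 ± 0.76 (adjusted p = 0.485) with all libraries and 2.23 (adjusted p = 0.0489) without PBS pull-down replicate 3.

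**Figure D3:**
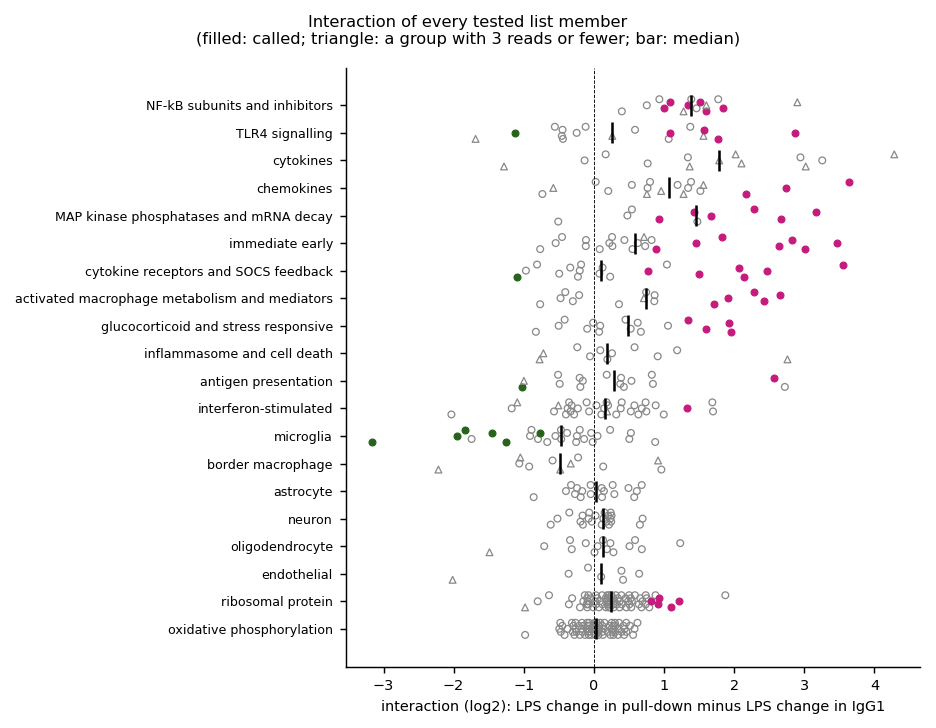
Interaction (horizontal axis, log2) of every tested member of 20 gene lists, with filled points for called genes, triangles for genes with 3 reads or fewer in a group, and a bar at the median of each list. The medians run from -0.48 in border macrophage markers to 1.79 in cytokines, and called members of the response lists lie to the right apart from Irak2, Il6st and Psmb8, while those of the microglia list lie to the left.

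Many interferon-stimulated genes rose in both preparations. Of 34 tested, 31 rose in pull-down, 20 in IgG1, and 1 had a called interaction by edgeR, Stat2 (higher, against 5.6% of all genes tested). At an unadjusted p under 0.05 in edgeR there were 6. DESeq2 called 2 higher and 1 lower, and limma voom 2 higher. The median was 1.85 in each preparation. The median interaction of 0.16 fell to -0.0029 with DESeq2 size factors and to -0.27 without both PBS libraries numbered 3. Rsad2, which encodes the antiviral protein viperin, was at 16.8, 10.5 and 9.17 CPM in PBS pull-down and at 226, 216, 179 and 114 CPM in LPS pull-down. In IgG1 it was at 2.7, 5.25 and 9.32 CPM with PBS and at 113, 120.3, 113 and 68 CPM with LPS. The rises of 3.93 and 4.16 left an interaction of -0.23 ± 0.60 (adjusted p = 0.876), with a 95% interval from -1.46 to 1.00 that includes both directions.

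Isg15, a ubiquitin-like protein, went from 51.1, 65 and 50.4 to 501, 595, 559 and 387 CPM in pull-down and from 8.1, 17.9 and 14 to 58.9, 72.2, 94.1 and 62.1 CPM in IgG1. Its interaction was 0.75 ± 0.34 (adjusted p = 0.197). Ifit3, an antiviral effector, went from 29.2, 36.8 and 26 to 245, 266, 246 and 151 CPM in pull-down and from 11.5, 13.7 and 11.7 to 53.9, 64.9, 61.4 and 54 CPM in IgG1, with 0.63 ± 0.37 (adjusted p = 0.344). Irf7, the factor that amplifies interferon production, had 1.66 in pull-down, 2.00 in IgG1 and an interaction of -0.33 ± 0.30 (adjusted p = 0.586). Oasl1 had fitted rises of 3.99 and 3.80, the one in IgG1 resting on 1, 0 and 2 reads with PBS. Parp14 rose by 1.61 in pull-down and 2.78 in IgG1, and its interaction of -1.17 ± 0.45 (adjusted p = 0.0625) passed the threshold without LPS IgG1 replicate 4, at -1.30 (adjusted p = 0.0441), and without PBS pull-down replicate 2, at -1.29 (adjusted p = 0.0484). Stat2, a subunit of the complex that binds the ISRE, went from 29.9, 38.1 and 35.2 to 172, 164, 167 and 129 CPM in pull-down and from 27, 32.6 and 30.3 to 53.9, 57.7, 51.8 and 55.4 CPM in IgG1. Both changes were called, and the interaction was 1.32 ± 0.29 (adjusted p = 0.00128).

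In absolute terms, the 72 genes that rose in both preparations with no called interaction were not at the same level in the preparations. After LPS, the IgG1 level of the 72 genes was at a median of 22.6% of the pull-down level, against 98.2% over all genes tested and 31.2% for the 641 with a higher interaction. The separate digest experiment of the series compared pull-down with IgG1 in mice without LPS. Of the 72 genes, 63 were tested there, and 46 of these (73%) were called in pull-down over IgG1 with a log2 ratio above 1. The share over all genes tested in both was 18.5%.

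Most genes with a lower interaction fell in pull-down: 310 of the 341 did so with no call in IgG1, while 24 had neither change called. Of the 26 microglia markers, 11 fell and 2 rose in pull-down, and 6 had a lower interaction, against 2.98% of all genes tested, with a median of -0.47. The count of 6 was 5 without LPS IgG1 replicate 3 and 8 with DESeq2. P2ry12, the ADP receptor of resting microglia, was at 331, 266 and 273 CPM in PBS pull-down and at 72.8, 60.9, 54.3 and 99.4 CPM in LPS pull-down. IgG1 held it at 112, 72.5 and 137 CPM with PBS and at 79.4, 85.8, 104 and 111 CPM with LPS, with overlapping groups. The interaction was -1.84 ± 0.28 (adjusted p = 2.11e-06), and after LPS the pull-down libraries overlapped those of IgG1. Cx3cr1, the fractalkine receptor whose locus drives Cre here, went from 1082, 894 and 985 to 261, 249.6, 294 and 337 CPM in pull-down, and IgG1 held 47.3, 43.1 and 70.7 CPM with PBS and 44.7, 42.5, 34.1 and 47.3 CPM with LPS. Its interaction was -1.46 ± 0.26 (adjusted p = 3.51e-05). Gpr34, a receptor for lysophosphatidylserine, went from 37.2, 23 and 54.3 to 1.98, 2.48, 2.71 and 5.4 CPM in pull-down and from 17.6, 16.8 and 30.3 to 10.6, 17.6, 19.1 and 13.3 CPM in IgG1. It had -3.17 ± 0.49 (adjusted p = 4.6e-07), and after LPS its pull-down level was under the IgG1 level in every library.

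Sall1, the transcription factor of microglial identity, had -1.95 ± 0.39 (adjusted p = 0.000304), and P2ry13 -1.25 ± 0.34 (adjusted p = 0.00914). Siglech, the last of the 6, had -0.77 ± 0.26 (adjusted p = 0.045), and 9 of the 14 single omissions ended its call. Tmem119, a defining marker of microglia, fell in pull-down by 0.65 on the log2 scale from 4172, 4324 and 4843 to 2591, 3102, 2468 and 3143 CPM, and its interaction of -0.67 ± 0.30 (adjusted p = 0.177) was not called. The summed microglia markers did not fall with LPS, since their range in pull-down was 68880 to 75340 CPM with PBS and 64880 to 77380 CPM with LPS. In these bulk samples, fewer cells of a type and less RNA per cell cannot be told apart. Of 11 border macrophage markers, edgeR, DESeq2 and limma voom called 0 interactions (0 at an unadjusted p under 0.05 in edgeR), and 4 fell in pull-down. Their median interaction was -0.48, close to that of the microglia markers. They held a median of 16 reads over the 7 IgG1 libraries, and 5 had a group with 3 reads or fewer. DESeq2 gave no adjusted p for the interaction of 2441 genes. With so few reads, the 0 calls do not show that pull-down and IgG1 changed alike.

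Other genes with a lower interaction included Asb2, a subunit of a ubiquitin ligase. It went from 188, 218 and 149 to 26.7, 26.7, 27.1 and 28.1 CPM in pull-down, while IgG1 held 14.2, 11.6 and 6.21 CPM with PBS and 7.09, 16, 16.4 and 9.61 CPM with LPS. The interaction was -2.90 ± 0.39 (adjusted p = 1.15e-07). Slc29a3, a lysosomal nucleoside transporter, had -2.58 ± 0.33 (adjusted p = 2.01e-08), Tmem86a -2.40 ± 0.32 (adjusted p = 1.03e-07) and the corepressor gene Cbfa2t3 -2.15 ± 0.26 (adjusted p = 1.23e-08). Cbfa2t3 was at 221, 209 and 169.7 CPM in PBS pull-down, at 40.5, 39.1, 62.5 and 46.5 CPM in LPS pull-down and at 153 to 196 CPM in all IgG1 libraries. Rgs2, a brake on G protein signalling, was the 1 gene that fell in both preparations with a called interaction. It went from 370.3, 231 and 274 to 33, 16.8, 24.4 and 46.5 CPM in pull-down and from 91.8, 94.6 and 101 to 62.4, 52.1, 57.3 and 55.4 CPM in IgG1, with -2.56 ± 0.29 (adjusted p = 1.12e-09). Rnf144b and Ebf3, both low in all 4 groups, had -2.84 ± 0.70 and -2.75 ± 0.69. The lowest called interactions among genes with at least 10 CPM in a group were those of Slc2a9, Osgin1 and Cd79b, which had few reads in PBS IgG1 and are given here by their reads. Slc2a9, a urate transporter gene, had 30, 32 and 33 reads in PBS pull-down, 17, 12, 10 and 7 in LPS pull-down, 0, 1 and 0 in PBS IgG1 and 2, 2, 1 and 2 in LPS IgG1. Osgin1, an oxidative stress gene, held 16, 15 and 14 reads in PBS pull-down, 22, 6, 10 and 5 in LPS pull-down, 1, 0 and 1 in PBS IgG1 and 11, 4, 2 and 4 in LPS IgG1. Cd79b, a B cell receptor gene, had 58, 53 and 53 reads in PBS pull-down, 26, 11, 9 and 3 in LPS pull-down, 2, 0 and 1 in PBS IgG1 and 1, 3, 1 and 3 in LPS IgG1.

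A few genes changed in IgG1 with no called change in pull-down. The interaction was called lower for 6 genes that rose in IgG1 only, and higher for 1 that fell in IgG1 only, Fcgrt. Psmb8, a subunit of the immunoproteasome, was at 503, 539 and 455 CPM in PBS pull-down and at 492, 601, 498 and 470 CPM in LPS pull-down, which overlapped. In IgG1 it went from 14.8, 23.1 and 20.2 to 45.4, 43.3, 42.3 and 29.6 CPM without overlap. The interaction was -1.02 ± 0.29 (adjusted p = 0.0157), and -0.86 (adjusted p = 0.103) without PBS IgG1 replicate 1. Rinl had -1.92 ± 0.54, Asap3 -1.62 ± 0.48, Cmtm3 -1.43 ± 0.37, Ppp1r18 -1.41 ± 0.38 and Mkl1 -0.82 ± 0.25. The IgG1 level after LPS was at a median of 9.22% of pull-down for the 6, and 5 of them were called in pull-down over IgG1 with a log2 ratio above 1 in the digest experiment. The count of 6 was 3 without LPS IgG1 replicate 4 and without PBS IgG1 replicate 1, 12 without LPS IgG1 replicate 3, 11 without LPS IgG1 replicate 1 and without LPS sorted replicate 1, and 13 with DESeq2 size factors. Asap3 lost its call without PBS IgG1 replicate 3, at -1.45 (adjusted p = 0.056), and without LPS IgG1 replicate 4, at -1.39 (adjusted p = 0.0583). Ppp1r18 lost it without PBS IgG1 replicate 2, at -1.05 (adjusted p = 0.0666). Mkl1 and Fcgrt lost it on 4 and 7 of the 14 single omissions.

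Wdr55, a gene of ribosome biogenesis, was the 1 gene with called changes in opposite directions. It was at 19, 22.3 and 22.2 CPM in PBS pull-down and at 32.3, 34.8, 44.8 and 37.8 CPM in LPS pull-down, and in IgG1 at 20.2, 17.9 and 24.9 CPM with PBS and 8.51, 9.62, 12.3 and 10.3 CPM with LPS. Neither pair of groups overlapped, and the interaction was 1.88 ± 0.37 (adjusted p = 0.000199).

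The marker lists of neurons, astrocytes, oligodendrocytes and endothelial cells, and the oxidative phosphorylation genes, held no called interaction with all libraries. Over all genes tested, 8.58% had a called interaction. At that share a list of 7 to 22 genes would hold few or none, so 0 there says little about those cell types. By edgeR, 0 of 22 neuron genes (3 at an unadjusted p under 0.05), 0 of 18 astrocyte genes (2), 0 of 15 oligodendrocyte genes (1), 0 of 7 endothelial genes (1) and 0 of 73 oxidative phosphorylation genes (5) were called. DESeq2 called 1 astrocyte and 2 oxidative phosphorylation genes lower and limma voom 1 oxidative phosphorylation gene higher, and neither tool called any other member of these lists. Without PBS IgG1 replicate 3, edgeR called 1 neuron, 1 oligodendrocyte and 1 endothelial gene higher and 1 astrocyte gene lower. Each of these lists held at most 1 call in every edgeR setting for which lists were counted. Lists were not counted for the fit of the 14 libraries alone, the replicate block or the filter on IgG1 counts. Of the 7 endothelial genes, 5 fell in pull-down and 1 in IgG1. Cldn5, the claudin of brain endothelial tight junctions, went from 22.6, 19.7 and 11.5 to 3.95, 6.83, 0 and 3.24 CPM in pull-down and from 44.6, 49.4 and 27.2 to 5.67, 7.22, 12.3 and 7.39 CPM in IgG1. The falls were called in both, at -2.26 and -2.36, and the interaction was 0.10 ± 0.57 (adjusted p = 0.958), which is under 0 with the other scalings. The 18 endothelial markers summed to 371 to 392 CPM with PBS and 201 to 294 CPM with LPS in pull-down, and to 180 to 227 CPM and 89.5 to 131 CPM in IgG1. Among 12 further lists, the called interactions were those of Psmb8 and H2-Ab1 (antigen presentation), Lrg1 and Icam1 (endothelial adhesion), Lcn2 (reactive astrocyte) and Cd79b (lymphocyte). Icam1, which binds leukocytes, had 1.17 ± 0.37 (adjusted p = 0.046) and lost its call on 9 of the 14 single omissions. Lrg1 had 2.75 ± 0.63 (adjusted p = 0.00177), and 1.74 (adjusted p = 0.109) without PBS IgG1 replicate 3. Gfap, the astrocyte filament gene, rose in both by 1.71 and 1.02, and its interaction was 0.68 ± 0.39 (adjusted p = 0.309).

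Ribosomal protein genes were called about as often as all genes. Of 73 tested, 14 rose and 1 fell in pull-down, and 5 had a higher interaction, against 15.5% of all genes that rose in pull-down and 5.6% with a higher interaction (median 0.24, or 0.10 with DESeq2 size factors and 0.11 with total counts). Rps9 went from 2582, 2468 and 2420 to 2748, 3781, 3041 and 3686 CPM in pull-down and from 435, 419 and 344 to 272, 228, 265 and 364 CPM in IgG1. Its interaction was 0.91 ± 0.23 (adjusted p = 0.00475), in which neither single change was large. Rps6 had 1.22 ± 0.32 (adjusted p = 0.00787), and 0.87 (adjusted p = 0.11) without PBS IgG1 replicate 3. Without both PBS libraries numbered 3, 2 of the 73 were called. Many of these genes have processed copies elsewhere in the genome, and how the authors' counting treated reads shared with them was not given in the sources used here.

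Sorted cells gave a measure from other libraries, though from the same experiment and, per the design text, from the same animals. Microglia had been sorted by flow cytometry, and 3 PBS and 4 LPS libraries were compared. Of the 11444 genes, 1940 were called higher (17%) and 2009 lower (17.6%) with LPS. Of the 641 genes with a higher interaction, 517 (80.7%) were called higher in sorted cells and 3 lower, and these 517 made up 26.6% of the sorted genes called higher. Of the 341 with a lower interaction, 273 (80.1%) were called lower in sorted cells and 2 higher, which was 13.6% of the sorted genes called lower. Genes called in pull-down with no called interaction also had high shares. Of 1168 that rose in pull-down, 751 (64.3%) were called higher in sorted cells, and of 947 that fell, 631 (66.6%) were called lower. The overlap was thus not particular to genes with a called interaction. The count of 517 was 358 without both PBS libraries numbered 3 and 336 with all libraries thinned to the lowest total. Of the 72 genes that rose in both preparations with no called interaction, 55 (76.4%) were called higher in sorted cells. Single genes could differ between the preparations, which was not tested. Csf3 was at -0.97 ± 2.59 in sorted cells and was not called there. Cldn5 was not called there either, and its fitted value of -2.06 had no finite SE, so no size is read from it. Socs3 rose by 3.56, Ier2 by 1.69 and Slc2a1 by 3.43, while P2ry12 fell by 1.86 and Asb2 by 2.98 on the log2 scale. H2-Ab1, a class II antigen gene, had a called interaction of 2.57 ± 0.76 (adjusted p = 0.0392) and -0.41 in sorted cells, not called, and 9 of the 14 single omissions ended its call.

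**Figure D4:**
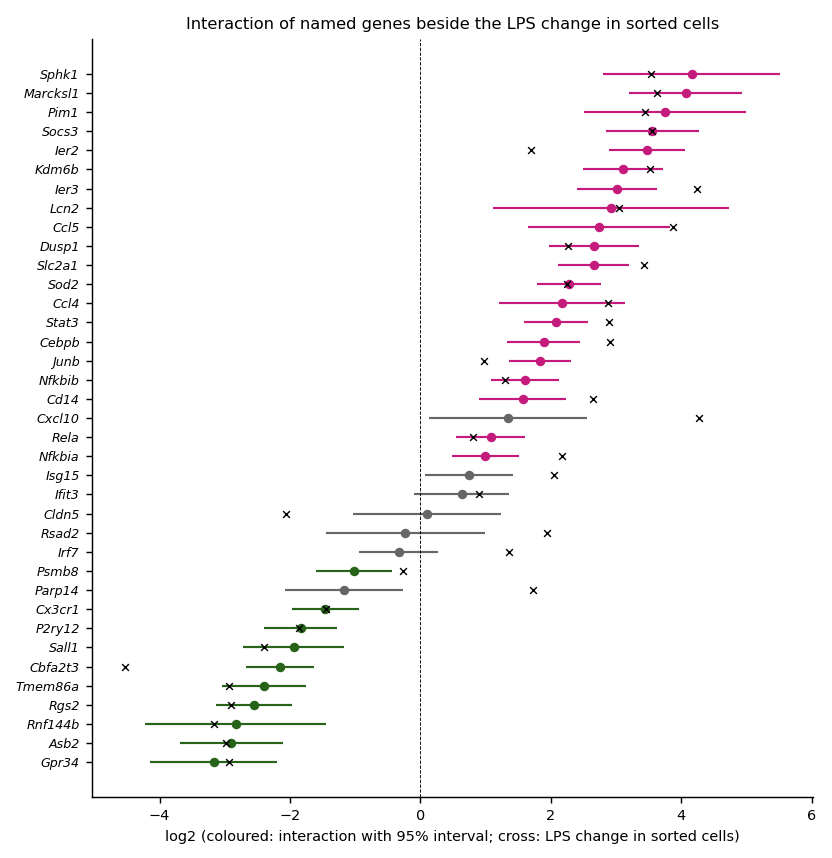
Interaction (horizontal axis, log2) of 37 named genes with its 95% interval, coloured where it was called higher or lower and grey where it was not, beside crosses for the LPS change in sorted cells. Socs3, Sod2, P2ry12 and Cx3cr1 have crosses on or next to the interaction, while the crosses of Cxcl10, Isg15 and Parp14 lie to the right of it. The cross of Cldn5 lies to the left, at a fitted value with no finite SE.

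Enrichment in pull-down without LPS was about as common among the higher genes as among all genes, and more common among the lower genes. Of the 620 genes with a higher interaction that were tested in the digest experiment, 121 (19.5%) were called in pull-down over IgG1 with a log2 ratio above 1, against 18.5% of all genes tested in both, a share near the background. Of 339 with a lower interaction, 156 (46%) were. Genes called in IgG1 over pull-down with a log2 ratio under -1 made up 16.3% of the higher and 10.9% of the lower genes, against 36.4% of all. Ier3, Dusp1, Kdm6b, Pim1 and Sphk1 were on the IgG1 side in mice without LPS, with log2 ratios of -1.43, -1.29, -1.01, -1.96 and -1.52.

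A response in pull-down was called beyond IgG1 more often where IgG1 held more reads of the gene. Of genes called in pull-down with under 30 reads over the 7 IgG1 libraries, 9.06% had a called interaction, and the shares were 22.6% from 30 up to 100 reads, 32% from 100 up to 300 and 38.2% at 300 or more. The median size of the pull-down change went the other way, from 1.68 to 0.70, and the median SE of their interaction fell from 1.09 to 0.26. Genes with large changes in pull-down and few IgG1 reads, such as Il1b and Tnf, had wide intervals: their 95% intervals ran from 1.08 to 4.80 and from 0.32 to 6.19.

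**Figure D5:**
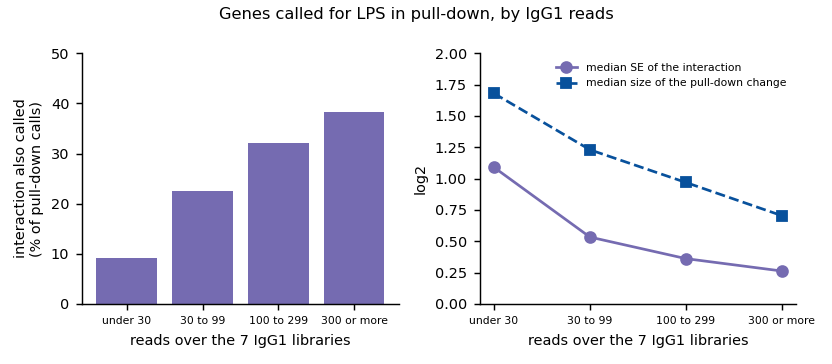
Share of the genes called in pull-down whose interaction was also called, and median SE of the interaction with the median size of the pull-down change (log2), against the reads per gene over the 7 IgG1 libraries. The share rises from 9.06% to 38.2% while the SE falls from 1.09 to 0.26.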

How the data were processed

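Per the labels, the authors deposited whole-number read counts per gene over exons, 1 column per library. Per the submitters' processing notes, bcl2fastq, HISAT version 0.1.5, HOMER and the build mm9 were used, with no roles given. The sources used here do not give the annotation, the strand setting or the treatment of duplicates, so reads of overlapping genes may not be told apart.

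All 28 libraries of the LPS experiment, in 8 groups, were fitted together in edgeR (version 4.0.16; R version 4.3.3), with TMM scaling, filterByExpr at a minimum count of 10 and the robust quasi-likelihood test. This kept 11444 of 24421 genes. The digest experiment was fitted alike, with 15 libraries in 4 groups and 11529 of 24411 genes. Genes with 3 reads or fewer in a pull-down or IgG1 group are given by their reads, apart from Oasl1, whose fitted values are also given. Values in sorted cells are fitted values throughout. DESeq2 version 1.42.0 and limma voom (version 3.58.1) were alternatives, beside other scalings, filters, thinning, blocks and omitted libraries. The fit was tested on simulated data, with effects placed only in genes with a mean of at least 10 counts in PBS IgG1. Effects in genes with fewer reads there were not covered.

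Genes named were the 10 highest and 10 lowest called interactions with at least 10 CPM in a group, 5 called alike in both preparations, 5 called in IgG1 only, 3 per gene list (30 lists) by p, and fixed genes, of which the text leaves some out. Wdr55, C5ar1, Spp1, Cebpb, Il4ra, Kdm6b, Rgs2, Myd88, Relb, Slc29a3, Cbfa2t3, Tmem86a, Isg15, Irf7, Sall1, P2ry13, Siglech, Irak2, Fcgrt, Mkl1, Il6st, Tnip2 and the genes under other observations were added after their values were seen. The members and the gene lists were chosen with earlier results of these data known. Replicates differed by more than counting noise (chi-square per degree of freedom of 2.58 to 6.54), so none was a duplicate.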

Additional observations from a re-analysis of the deposited data

Results flagged for a closer look

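In 4 groups of 4 libraries, 1 library lay far from the other 3. Sphk1 was at 96.26 CPM in LPS pull-down replicate 2 and at 44.3 to 49.56 CPM in the others, and Pim1 was at 65.83 CPM in the same library against 36.74 to 41.41 CPM. Rsad2 was at 68.01 CPM in LPS IgG1 replicate 4 and at 112.7 to 120.3 CPM in the others, and Parp14 was at 17.74 CPM there against 24.55 to 25.53 CPM. Dixon's test was applied to 122 groups of 61 genes and picked these 4, while chance alone picks about 1 in 20 groups. All 4 sit in 2 libraries. The interactions of Sphk1 and Pim1 were called under every setting run.

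The LPS change differed between pull-down and IgG1 for 982 genes by the test of the interaction. Wdr55 was the gene with called changes in opposite directions, a rise in pull-down and a fall in IgG1, with an interaction of 1.88.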

How the results depend on the processing

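The count of genes with a called interaction ran from 743 to 975 when 1 library was left out, and was 905 with no filter on low counts, 936 with limma voom, 942 with the 14 libraries alone and 1130 with DESeq2. It was 585 with all 14 libraries thinned to the lowest total, which leaves fewer reads to test. The LPS change in IgG1 was called for 132 genes, for 213 with no filter on low counts, for 84 with the IgG1 libraries alone, and for 86 to 172 when 1 library was left out, the lowest without LPS IgG1 replicate 2. For the 213 and the 84 the cause was not tested.

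Of 126 genes followed one by one, 105 were called with all libraries and 56 of these under every setting run. Of the 21 not called, 12 were called under no setting. The direction turned for 4 genes with interactions near 0. Cldn5 had 0.10, and -0.0293 with DESeq2 size factors, -0.0269 with total counts, -0.47 with limma voom and -0.78 with thinning, and it ran from -0.32 to 0.45 with 1 library left out. Oasl1 had 0.19, and -0.0030 with DESeq2 size factors, -0.14 with DESeq2 and -0.43 without both PBS libraries numbered 3, with -0.60 to 0.57 over single omissions. Rsad2 ran from -0.81 to 0.16 and Tlr4 from -0.73 to 0.52 over single omissions, and Tlr4 had 0.62 with thinning. For these turns the cause was not tested.

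With the library number as a replicate block, 1110 interactions were called, 640 higher and 470 lower, 918 of them shared with the fit without it. Under the block Cxcl10 (adjusted p = 0.00139), Il1b (adjusted p = 0.0115) and Fkbp5 (adjusted p = 0.00123) were called, and Tnip2 was not (adjusted p = 0.056). The correlation of pull-down and IgG1 libraries of 1 number ran from -0.02 to 0.14, and 6 of 7 pull-downs correlated best with their own number, a hint from the data. The design text has sorting and pull-down from 1 animal, and does not say that the number marks it. In the digest experiment the replicate block gave 7910 called genes against 8594. No paired analysis was possible for the LPS change within 1 preparation because PBS and LPS mice have different numbers.

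Each IgG1 library held fewer counts than the pull-down of the same number, and intervals cover the spread between these mice. Leaving out both PBS libraries numbered 3 was chosen after seeing the data.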

Other observations

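The smallest interaction p values outside the gene lists belonged to genes of other functions, chosen here after their values were seen. Rcan1, an inhibitor of calcineurin, went from 87.7, 109 and 141 CPM in PBS pull-down to 1014, 1336, 908 and 1396 CPM in LPS pull-down, while IgG1 held 46.6, 68.3 and 52.8 CPM with PBS and 76.6, 61.7, 72.3 and 72.5 CPM with LPS. Its interaction was 3.01 ± 0.27 (adjusted p = 7.84e-13) by edgeR, and it rose by 3.36 in sorted cells. Zyx, a protein of focal adhesions, had 2.25 ± 0.25 (adjusted p = 1.03e-09), Txnrd1, a thioredoxin reductase, 2.42 ± 0.28 (adjusted p = 1.33e-09), and Ldha, which makes lactate, 1.74 ± 0.22 (adjusted p = 1.36e-08). Atf4, a transcription factor of the integrated stress response, had 1.82 ± 0.23 (adjusted p = 1.74e-08). Id2, an inhibitor of transcription factors, was at 66.5, 67 and 87.9 CPM in PBS pull-down and at 221, 273, 227 and 226 CPM in LPS pull-down, a rise to the IgG1 level of 265, 233 and 228 CPM with PBS and 267, 230.1, 229 and 242 CPM with LPS. Its interaction was 1.68 ± 0.23 (adjusted p = 2.53e-07).

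The splicing factor genes Srsf7 and Srsf2 rose in pull-down and, by less, in sorted cells. Srsf7 was at 15.3, 19.1 and 15.3 CPM in PBS pull-down and at 80.4, 91.9, 109 and 106 CPM in LPS pull-down, while IgG1 held 43.9, 28.4 and 42.7 CPM with PBS and 29.1, 27.3, 20.5 and 26.6 CPM with LPS. The interaction was 3.08 ± 0.31 (adjusted p = 1.99e-11), beside a change of 0.63 in sorted cells. Srsf2 had 1.90 ± 0.31 (adjusted p = 1.12e-05) beside 0.57 in sorted cells. The difference from sorted cells was not tested. Sesn1, a stress-induced inhibitor of mTORC1, fell from 123, 121 and 132 to 46.1, 31.7, 42.8 and 47.5 CPM in pull-down, whereas every LPS library of IgG1, at 122, 120.3, 127 and 149 CPM, lay above the PBS libraries at 85.7, 70.4 and 100.2 CPM. Its interaction was -2.17 ± 0.24 (adjusted p = 3.48e-10). Mapk14, the p38 kinase that Dusp1 switches off, had -1.63 ± 0.27 (adjusted p = 1.18e-05).

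LPS IgG1 replicate 3 held the highest sum of microglia markers among the IgG1 libraries, 3328 CPM, and the highest level of Csf3r, 27.3 CPM against 3.54, 8.02 and 4.44 CPM in the other LPS libraries of IgG1. Its part in the results was not tested beyond leaving it out, which gave 930 called interactions.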
